A study of Sus scrofa with 64 samples.

Results

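The 16 fed piglets of 6 weeks of age were examined on their own, to describe how much their jejunal transcriptomes differed from pig to pig. They were taken by their labels, and they make up 16 of the 64 samples of the study, each sample being 1 library from 1 pig. All 64 pigs were females of the TN20 cross (Large White x Norwegian Landrace), and each was sampled by scraping the mucosa of the mid-jejunum. The 6-week piglets had left the sow at 4 weeks of age for a research facility, where they were housed in pairs on a standard weaning diet. The fed pigs went on eating until slaughter, and the 16 fasted pigs of the same age, used here as the baseline for spread, received no feed for the last 48 h. Both groups had free access to water. The sources did not say which pigs shared a pen or a litter, so every test treats pigs as unrelated.

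The jejunum absorbs most nutrients, and its surface is renewed from dividing crypt cells that mature into enterocytes as they move up the villus. A scraping takes this epithelium together with the lymphoid follicles, vessels, fibroblasts and smooth muscle beneath it, in proportions that differ with the depth of the scrape. Genes induced by interferon and genes induced by ligands of the aryl hydrocarbon receptor (AHR) respond to microbes and to dietary compounds. In such bulk samples, fewer cells of a type and less RNA per cell cannot be told apart.

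Levels are given as CPM, the count of a gene scaled to the size of its library and adjusted by TMM factors, and spread as the SD of log2 CPM over the 16 pigs of a group. The fed libraries held 19083303 to 19755780 counts on 17903 to 18632 genes, with TMM factors of 0.914 to 1.16. None of the 120 possible pairs of fed libraries was identical. Sucrase-isomaltase (SI), a brush border enzyme of jejunal enterocytes, ranged from 3510 to 6080 CPM in the fed pigs, with a median of 5310. Pancreatic acinar markers did not reach the level filter. A single pig stood apart in a principal component analysis, where 25.1% of the variance lay on the leading axis. Fed pig 46 scored 42.8 on it, and the next pig, 54, scored 24.9, while pig 62 at the other end scored -31.2. Results that rest on pig 46 are given with and without it.

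Spread in the fed pigs was close to that in the fasted pigs. The median SD was 0.26 over 11533 genes in fed pigs and 0.28 in fasted pigs, and 42.9% of genes had the larger SD in the fed group. No gene passed the limma test of a difference in spread in either direction (percent called 0), and the lowest adjusted p was 0.14. At an unadjusted p under 0.05, 200 genes were wider in fed pigs and 358 were wider in fasted pigs, together 4.84% of all genes. These misses do not show that the spreads were equal. The smallest p values for a wider spread in fed pigs belonged to NADK2, GUCA2B, VNN1, SYNE2 and FGFRL1. GUCA2B, which encodes uroguanylin, a peptide that regulates salt and water secretion, had an SD of 0.67 in fed and 0.33 in fasted pigs (adjusted p = 0.6). VNN1, a pantetheinase, had SDs of 1.4 and 0.64 (adjusted p = 0.99). On the opposite side stood TMEM106A, GCNT3, EIF2B2, ST3GAL5 and DIO2. GCNT3, a mucin glycosyltransferase, had an SD of 0.57 in fed and 1.27 in fasted pigs (adjusted p = 0.4).

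**Figure D1:**
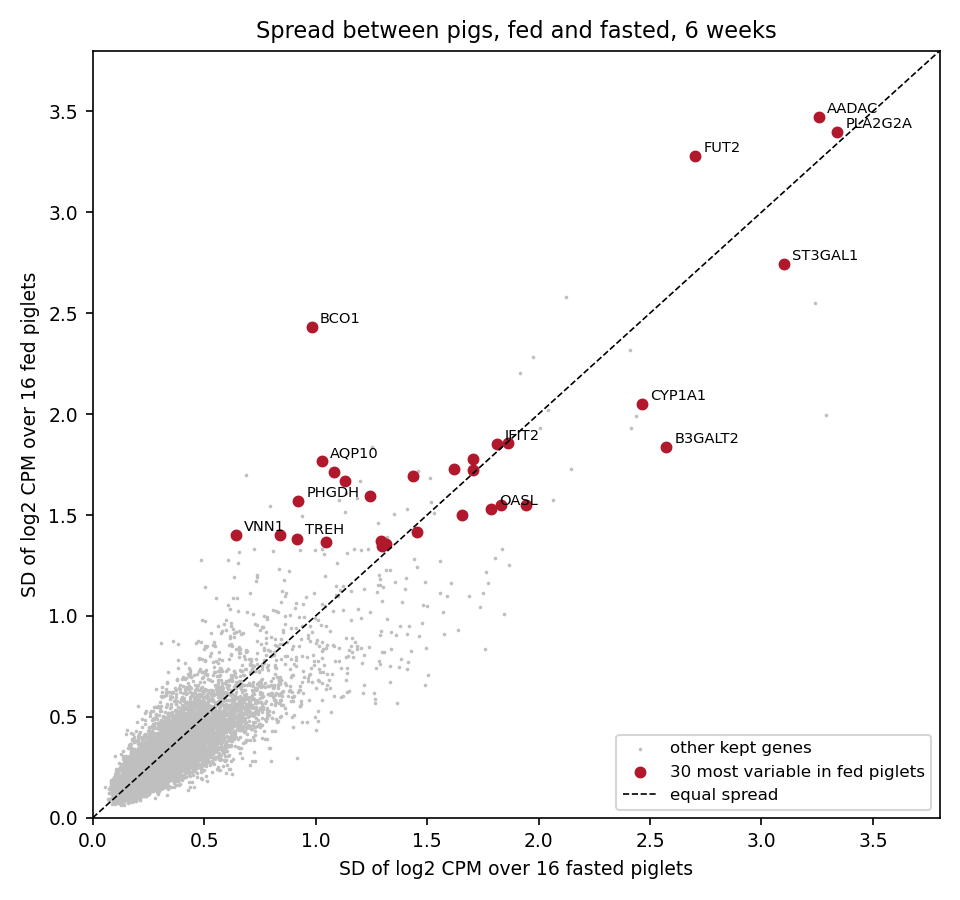
SD of log2 CPM over 16 fed piglets against that over 16 fasted piglets for 11533 genes, with the 30 most variable named genes of the fed group in red and a dashed line of equal spread. AADAC, PLA2G2A, FUT2 and ST3GAL1 lie far out in both groups, whereas BCO1 has an SD of 2.43 in fed and 0.98 in fasted pigs.

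The 30 most variable genes with a symbol were chosen by their SD in the fed pigs, so that SD is a description. Their median SD was 1.68 in fed pigs and 1.54 in fasted pigs. The last gene inside was CUBN, at 1.35, and the first outside was HOMER2, at 1.33. Among the 30, 17 were also among the 30 most variable of the fasted group, and 29 lay above the 95th percentile of SD there. They included 3 glycosyltransferases (FUT2, ST3GAL1 and B3GALT2) and the antiviral genes IFIT2 and OASL. Apical membrane proteins of the enterocyte were represented by TREH (trehalase), CUBN (the cobalamin receptor cubilin), AQP10 (a water and glycerol channel) and VNN1. Between fasted and fed pigs, 9 of the 30 were higher and 6 lower in fasted pigs by edgeR's quasi-likelihood test, where 24.4% and 24% of all genes were called.

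BCO1, which cleaves beta-carotene to retinal, ranged in fed pigs from 0.161 CPM in pig 60 to 90.7 CPM in pig 46, with a median of 17.9. In fasted pigs it ranged from 14.2 to 181 CPM, with a median of 82.1. The groups overlapped, and BCO1 was higher in fasted pigs by 1.79 ± 0.51 on the log2 scale (SE, edgeR adjusted p = 0.0046). VNN1 ranged from 14.4 CPM in pig 58 to 299 CPM in pig 46 (median 83.4), and from 63.1 to 440 CPM in fasted pigs. PHGDH, the first enzyme of serine synthesis, ranged from 0.549 CPM in pig 46 to 55.3 CPM in pig 60, with a median of 4.41. In fasted pigs it did not pass 3.18 CPM, and the groups overlapped at the low end. HAS2, a hyaluronan synthase, ranged from 2.83 to 267 CPM in fed pigs and from 1.75 to 28.2 CPM in fasted pigs. MT1X, a metallothionein, ranged from 0.844 to 15.3 CPM in fed pigs and from 7.41 to 90.5 CPM in fasted pigs, so the fed median of 2.29 CPM lay below the lowest fasted pig.

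The other members of the 30 spread over unlike functions. IFIT2, an interferon-induced RNA-binding protein, ranged from 4.83 CPM in pig 46 to 519 CPM in pig 48 and from 3.41 to 346 CPM in fasted pigs. SPP1, the secreted phosphoprotein osteopontin, ranged from 2.63 to 98 CPM, and PTK6, a tyrosine kinase of epithelial cells, from 1.55 to 53.6 CPM. Neither was called between fasted and fed pigs, and the groups overlapped for both.

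Among apical proteins, TREH ranged from 5.05 CPM in pig 62 to 226 CPM in pig 48, CUBN from 5.13 CPM in pig 58 to 236 CPM in pig 46, and AQP10 from 0.439 CPM in pig 46 to 115 CPM in pig 36. The pig with the highest CUBN was thus the pig with the lowest AQP10. HSD17B6, a steroid dehydrogenase, peaked in pig 46 like BCO1, VNN1 and CUBN, at 19.9 CPM against a median of 2.27. FOSB, an immediate early transcription factor, ranged from 0.817 CPM in pig 62 to 29.9 CPM in pig 42, and was lower in fasted pigs (a log2 change of -2.1 ± 0.43, edgeR adjusted p = 0.00016). ATP2B3, a plasma membrane calcium pump, ranged from 1.12 to 38.2 CPM in fed pigs and did not pass 2.45 CPM in fasted pigs. TCP11, PLCH2, TGM3, FAM151A, C8G, NOL4 and GUCA1A completed the 30, with SDs of 1.5 to 1.86 in fed pigs.

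Some of the most variable genes did not vary smoothly but fell into separate levels. A gene was counted here when neighbouring pigs in its ranking were at least 4-fold apart with 2 or more pigs on each side, a rule set after the data were seen. In fed pigs 12 genes met it (0.104% of 11533) and in fasted pigs 11 did (0.0954%), and 5 met it in both. Of those 5, 4 had a symbol: AADAC, PLA2G2A, FUT2 and ST3GAL1.

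FUT2, which adds the terminal fucose of H antigens on mucosal glycans and sets secretor status in humans, lies on chromosome 6 (54034666 to 54044891, Sscrofa11.1). It was between 0.763 and 1.75 CPM in fed pigs 34, 36, 42, 48 and 62, and between 98.3 and 226 CPM in the other 11. Among fasted pigs 5 were again low, with 0.922 to 1.54 CPM, and the other 11 had 35 to 104 CPM. The high levels of the groups thus overlapped only at the top of the fasted range. The nearest measured genes on each side, NTN5 and FUT1, another fucosyltransferase, had SDs of 0.66 and 0.47 in fed pigs, against 3.28 for FUT2.

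AADAC, an esterase that hydrolyses drugs and neutral lipids, had 0 or 1 count in fed pigs 52, 56 and 64 and from 12.9 to 212 CPM in the other 13. In fasted pigs 2 were low. PLA2G2A, a secreted phospholipase with antibacterial activity, had 0 counts in fed pig 40 and 2 counts in pig 46, and from 32.1 to 308 CPM in the other 14. It lies on chromosome 6 (78327728 to 78339546), and its measured neighbours OTUD3 and PLA2G2D had SDs of 0.18 and 1.26 in fed pigs. ST3GAL1, a sialyltransferase of O-linked glycans, was low in 9 fed pigs and high in 7. Pig 60 stood at 38.6 CPM, 8 pigs lay between 7.4 and 11.2 CPM, and 7 lay between 280 and 661 CPM. In fasted pigs 7 were low and 9 were high. B3GALT2, a galactosyltransferase, was under 1 CPM in fed pigs 36, 38, 52 and 56 and reached 39.6 CPM in pig 64.

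The low pigs were not the same for each gene, but they overlapped. Fed pigs 34, 36, 48 and 62 were low for both FUT2 and ST3GAL1, and pigs 40 and 46 for both PLA2G2A and ST3GAL1. Whether the genes were low independently of each other was not tested. Over AADAC, PLA2G2A, FUT2 and ST3GAL1, 3 fed pigs were low for none, 7 for 1 gene and 6 for 2 genes, and no pig was low for more. These genes also had few close companions, but a gene in separate levels seldom correlates so closely with one that varies smoothly. The counts below therefore do not show that these genes varied alone. Across the fed pigs a kept gene had a median of 21 other genes with an absolute Pearson correlation of at least 0.8, whereas AADAC had 3 and PLA2G2A, FUT2 and ST3GAL1 had 1 each. None of these genes was called between fasted and fed pigs, with edgeR adjusted p values of 0.089 for AADAC, 0.36 for PLA2G2A, 0.12 for FUT2 and 0.54 for ST3GAL1.

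**Figure D2:**
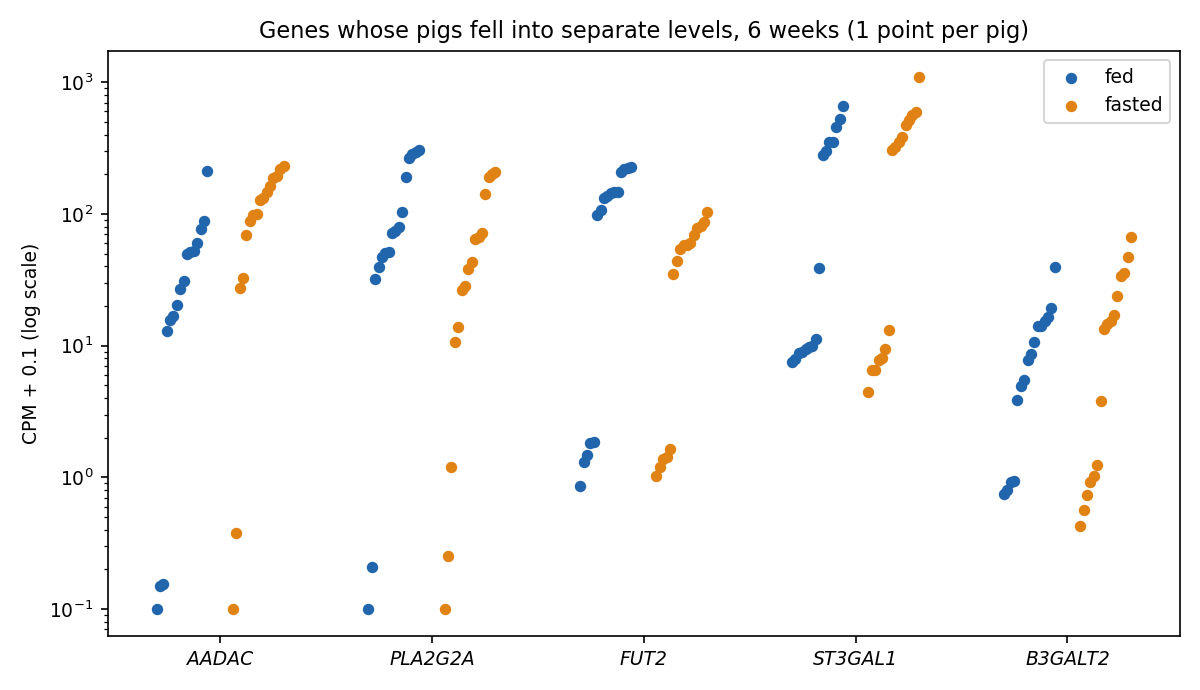
CPM plus 0.1 on a log axis for 5 genes in the 16 fed and 16 fasted piglets of 6 weeks, with 1 point per pig in rising order. FUT2 has 5 low pigs in each group with an empty range between the levels, and ST3GAL1 has 9 low fed pigs and 7 low fasted pigs.

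To describe which genes moved together, 6 genes were used as anchors, and every other gene was fitted against each anchor's log2 CPM over the 16 fed pigs with edgeR's quasi-likelihood test. A slope is the log2 change of a gene for a change of 1 in the anchor's log2 CPM. The same fits were made in the fasted pigs, and the difference of the slopes was tested in a joint fit. The anchors were OASL for antiviral genes, CYP1A1 for AHR and xenobiotic genes, MS4A1 for lymphoid follicles, ACTG2 for the stroma, PCK1 for the fuel response and DUOX2 for epithelial inflammation.

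Interferon-induced genes formed the group that varied most broadly. OASL, an oligoadenylate synthetase-like protein that enhances RNA sensing, ranged in fed pigs from 8.62 CPM in pig 46 to 605 CPM in pig 44, with a median of 290. In fasted pigs it ranged from 10.9 to 570 CPM with a median of 34.3. The ranges overlapped, but 10 of the 16 fasted pigs, at 55.2 CPM or less, lay below every fed pig except pig 46. The level of OASL was not called between the groups (a log2 change in fasted pigs of -1.19 ± 0.53, edgeR adjusted p = 0.061). Of 38 antiviral genes 19 were lower in fasted pigs and none was higher, where 24% of all genes were lower and 24.4% higher. Of 38 kept antiviral genes, 22 lay above the 95th percentile of SD in fed pigs and 24 in fasted pigs, and their median SDs were 0.74 and 0.84, against 0.26 and 0.28 over all genes. Within the list the mean correlation over 703 pairs of genes was 0.59 in fed and 0.7 in fasted pigs, against about 0.001 over all pairs.

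With OASL, 160 genes rose (1.39% of 11532) and 106 fell (0.919%) among fed pigs. The 266 calls became 125 with smooth muscle and follicle B cell levels as covariates and 471 by DESeq2. Of 37 antiviral genes, 25 rose and none fell. The dynamin-like GTPase MX1 ranged from 201 CPM in pig 46 to 1700 CPM in pig 44 and rose with a slope of 0.53 ± 0.05 (SE, edgeR adjusted p = 2.7e-05). ISG15, a ubiquitin-like modifier, ranged from 84.7 to 1360 CPM in the same pigs, with a slope of 0.7 ± 0.08 (edgeR adjusted p = 4.1e-05). RSAD2, or viperin, ranged from 246 to 3200 CPM, again from pig 46 to pig 44, with a slope of 0.61 ± 0.1 (edgeR adjusted p = 0.0029). The gene with the smallest p was FBXO39, an F-box protein outside the list, with a slope of 0.53 ± 0.03. TREX1, a DNA exonuclease that limits interferon responses, and PELP1 were also among the 10 smallest p values for a rise.

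Not every member took part. The guanylate-binding proteins GBP1 and GBP2 had slopes of -0.08 ± 0.09 and -0.11 ± 0.15, and the transcription factor IRF1 had -0.02 ± 0.05. The chemokines CXCL9 and CXCL10 had slopes of 0.09 ± 0.15 and 0.16 ± 0.11, none of these called (edgeR adjusted p from 0.51 to 0.9). In the plot of antiviral genes across the fed pigs, GBP1 and GBP2 were highest in pig 64, where OASL was 80.1 CPM and below its median, and CXCL9 was highest in pig 44. Genes that fell with OASL included EGLN1, an oxygen sensor of the HIF pathway, with a slope of -0.15 ± 0.02. SESN1, a stress-induced inhibitor of growth signalling, fell with a slope of -0.19 ± 0.03. Neither was called in fasted pigs, with slopes of -0.05 ± 0.02 and -0.04 ± 0.04 (edgeR adjusted p = 0.45 and 0.83). Without pig 46, 24 genes fell among fed pigs in place of 106. EGLN1 was still among them, with a slope of -0.19 ± 0.03 (edgeR adjusted p = 0.0082). Whether SESN1 was among them is not given, so its fall may rest on pig 46.

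In the fasted pigs 187 genes rose with OASL (1.62%) and 49 fell (0.425%). The calls shared by both groups were 107, which is 40.2% of the fed and 45.3% of the fasted calls, and all had the same sign. No slope differed between the groups by edgeR's test (percent called 0), with 748 genes at an unadjusted p under 0.05 and also 0 called by limma-voom. Without pig 46, 119 genes rose and 24 fell with OASL among 15 fed pigs, 19 of 37 antiviral genes rose, and the SD of OASL was 0.98 in place of 1.53.

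**Figure D3:**
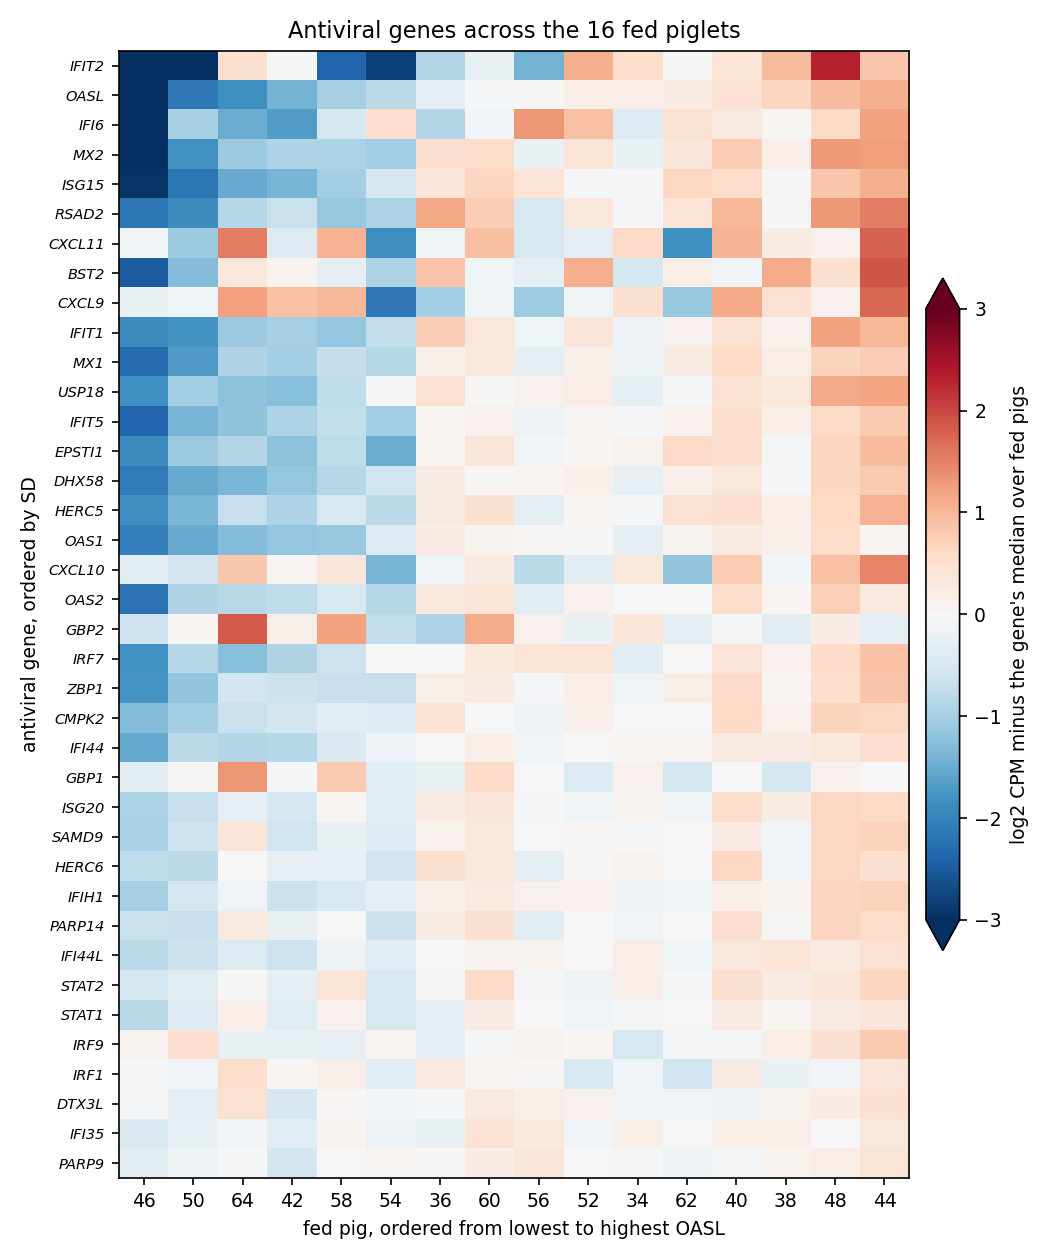
Log2 CPM minus the gene's median over fed pigs for 38 antiviral genes (rows, ordered by SD) in the 16 fed piglets (columns, from lowest to highest OASL), with colours limited to 3 in either direction. Pig 46 is lowest for most genes, pigs 48 and 44 are highest, and GBP1, GBP2, CXCL9 and IRF1 follow a different order.

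CYP1A1, the cytochrome P450 most strongly induced through AHR, ranged in fed pigs from 9.96 CPM in pig 64 to 1540 CPM in pig 48, with a median of 180. In fasted pigs it ranged from 23.3 to 6400 CPM with a median of 1560, and the groups overlapped. It was higher in fasted pigs by 2.71 ± 0.66 on the log2 scale (SE, edgeR adjusted p = 0.0012). Its SD was 2.05 in fed and 2.46 in fasted pigs. By pig number, CYP1A1 was 103 to 1540 CPM in fed pigs 34 to 48 and 9.96 to 286 CPM in fed pigs 50 to 64, ranges that overlap. Fasted pigs 33 to 51 had 1260 CPM or more, as did pig 55 with 1720 CPM. Fasted pigs 53, 57, 59, 61 and 63 had 23.3 to 728 CPM. These cuts were chosen after the values were seen and differ between the groups. Under the cut used for fed pigs, fasted pig 49, the highest at 6400 CPM, would fall with the later pigs. What the numbering of the pigs reflects is not given, and its relation to CYP1A1 was not tested.

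Few genes were called with CYP1A1 in the fed pigs, which does not show that other genes did not vary with it. By edgeR 1 gene, without a symbol, rose (0.00867% of 11532) and 1 fell (0.00867%). An unadjusted p under 0.05 was reached by 1684 genes, against 1756 with OASL. Among genes with a symbol, SPIN1 had the smallest p for a rise (edgeR adjusted p = 0.077). The gene that fell was CD163, the haemoglobin scavenger receptor of macrophages, with a slope of -0.55 ± 0.09 (edgeR adjusted p = 0.034). Other macrophage and dendritic cell genes did not share this. Of 13 tested, CD163 included, 6 had a positive slope, and the median slope was 0. CD163 ranged from 0.823 CPM in pig 46 to 20.7 CPM in pig 56. It was 8.82 CPM or more in fed pigs 56 to 64 and 7.44 CPM or less in the other fed pigs, a cut chosen after the values were seen. Fasted pigs did not follow this order. Their highest CD163 was 10.4 CPM in pig 55, while pigs 57, 59, 61 and 63 had 1.62 to 5.65 CPM. The number of genes called with CYP1A1 was 2 without pig 46 as well, and 1 without pig 48, the pig with the highest CYP1A1. DESeq2 called 196 genes in the same pigs, and the count by edgeR was 12 on the ranks of CYP1A1.

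Of 7 AHR target genes tested, none was called in fed pigs and 3 rose in fasted pigs, where 8 genes were called in all (0.0694%). AHRR, the repressor that AHR induces, had a slope of 0.11 ± 0.05 in fed pigs (edgeR adjusted p = 0.33) and of 0.37 ± 0.06 in fasted pigs (edgeR adjusted p = 0.017). CYP1B1 had slopes of 0.3 ± 0.1 and 0.77, and TIPARP, an ADP-ribosyltransferase that also represses AHR, had 0.06 ± 0.03 and 0.25. The differences between the groups did not pass the test (edgeR adjusted p = 1 for each), and no gene was called for it by edgeR (percent called 0, 283 at an unadjusted p under 0.05) or by limma-voom. AHRR itself ranged from 7.5 to 28.1 CPM in fed and from 2.69 to 54.7 CPM in fasted pigs. The receptor AHR varied little in either group, with SDs of 0.18 and 0.21.

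Of 49 listed xenobiotic enzymes and transporters, 22 had a gene id in the data and 14 were kept. What follows does not cover the rest of the list. In fed pigs the 14 varied far less than CYP1A1, which was itself among the most variable genes. They had a median SD of 0.37 in both groups, against 0.26 and 0.28 over all genes, and 1 lay above the 95th percentile in fed pigs. GSTM3, a glutathione transferase, had the largest SD, 0.72, and ranged from 4.66 to 34.7 CPM. ABCC2, an apical export pump for conjugated compounds, ranged from 73.9 to 336 CPM, with an SD of 0.62 in fed and 0.31 in fasted pigs. None of the 14 was called with CYP1A1.

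A few B cell markers were low in most fed pigs and high in pig 38, but the follicle list as a whole did not share this. MS4A1, the B cell marker CD20, had a median of 0.611 CPM and reached 8.89 CPM in pig 38, with an SD of 1.19. In fasted pigs the median was 0.616 and the highest 3.64 CPM. Since it did not reach the level filter, it was fitted on the 13482 other genes that pass filterByExpr. By edgeR 4 genes rose with it (0.0297%) and none fell, with 506 genes at an unadjusted p under 0.05. They included CD79B, a chain of the B cell receptor, with a slope of 0.67 ± 0.1 (edgeR adjusted p = 0.023), and MEF2B, a transcription factor of germinal centre B cells, with 0.64 ± 0.1 (edgeR adjusted p = 0.023). The other 2 had no symbol.

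Pig 38 had the highest level of 8 of the 16 follicle B cell genes that passed filterByExpr, which were MS4A1, CD79B, BLK, POU2AF1, TNFRSF13C, CD79A, CD22 and BCL11A. The other 8 peaked in other pigs. MS4A1, among the first 8, is also the gene by which pig 38 stood out. The share of all genes that peaked in pig 38 is not given, so no excess can be read from this count. Of the 15 genes tested against MS4A1, 1 rose, 11 had a positive slope, and the median slope was 0.13 against 0 over all genes. Without pig 38 no gene was called with MS4A1, and in the fasted pigs edgeR called none either (549 at an unadjusted p under 0.05). The slopes of the groups did not differ for any gene by edgeR (612 at an unadjusted p under 0.05) or by limma-voom. The 12 kept follicle B cell genes had a median SD of 0.34, with 1 above the 95th percentile, and their mean correlation over pairs was 0.12 in fed and 0.24 in fasted pigs. T cell genes had a mean correlation in fed pigs of 0.67 over 78 pairs, all of them positive. Of the 13 kept T cell genes, 12 had their highest level in pig 64 and CD4, the co-receptor of helper T cells, in pig 42. The share of all genes that peaked in pig 64 is not given either.

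Stromal genes varied together, with median SDs in fed pigs of 0.46 for smooth muscle and 0.57 for fibroblast and matrix genes, against 0.26 over all genes. ACTG2, the smooth muscle gamma-actin of the gut wall, ranged from 21.9 CPM in pig 44 to 95.7 CPM in pig 54 with a median of 48.9, and from 3.56 to 26.6 CPM in fasted pigs. Its SD was 0.56 in fed and 0.69 in fasted pigs, and it was lower in fasted pigs by 1.54 on the log2 scale (a log2 change of -1.54 ± 0.2, edgeR adjusted p = 2.2e-07). Among fed pigs 358 genes rose with ACTG2 (3.1%) and 35 fell (0.304%). The genes that rose held 11 of 12 smooth muscle, 17 of 23 fibroblast and matrix and 9 of 15 endothelial genes, and none of these fell. The smooth muscle actin ACTA2 had a slope of 0.89 ± 0.09 (edgeR adjusted p = 2.3e-05), the collagen COL1A1 0.79 ± 0.16 (edgeR adjusted p = 0.0074) and the endothelial adhesion molecule PECAM1 0.59 ± 0.13 (edgeR adjusted p = 0.016).

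COL1A1 ranged from 126 CPM in pig 38 to 482 CPM in pig 36, and COL3A1 from 205 CPM in pig 38 to 961 CPM in pig 42. The collagens thus peaked in other pigs than ACTG2. Genes that fell with ACTG2 included NUPR1, a stress-induced nuclear protein, with a slope of -1.48 ± 0.23 (edgeR adjusted p = 0.0013), and CCR7, the homing receptor of naive lymphocytes and dendritic cells, with -1.26 ± 0.21 (edgeR adjusted p = 0.0018). TAP1, the antigen peptide transporter, fell with a slope of -0.37 ± 0.08 (edgeR adjusted p = 0.015). All 38 antiviral genes had a negative slope on ACTG2, with a median of -0.45 against -0.01 over all genes. Only 2 of them were called, and none with library size alone in place of TMM. In fasted pigs 7 of the 38 had a positive slope, and the median was -0.36. The 38 genes varied together, so their signs are not separate observations. Whether the stromal share of a scraping had a part in the antiviral levels was not tested.

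In fasted pigs 105 genes rose with ACTG2 (0.911%) and 11 fell (0.0954%). The shared calls were 76, which is 19.3% of the fed and 65.5% of the fasted calls, all with the same sign. Endothelial genes had 9 of 15 called in fed and 0 of 15 in fasted pigs, but no gene's slope differed between the groups by edgeR (percent called 0, 1228 at an unadjusted p under 0.05) or by limma-voom. Without pig 46 the counts among fed pigs were 363 and 31.

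**Figure D4:**
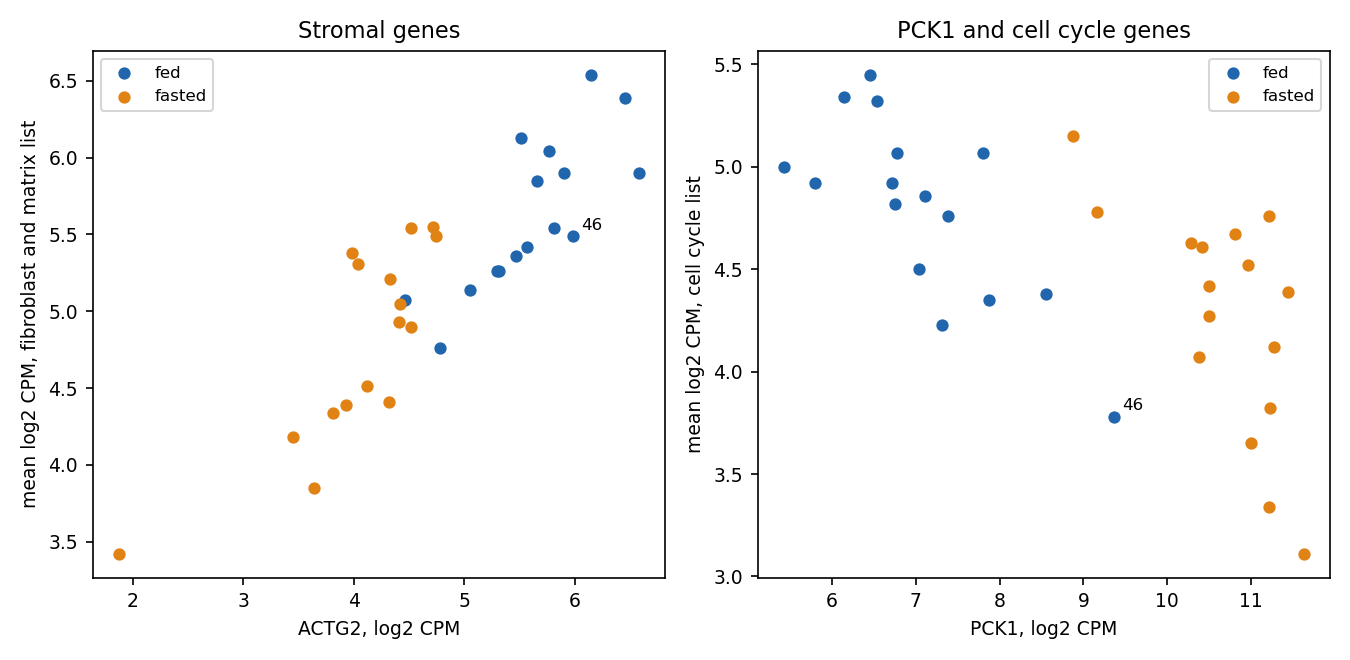
Mean log2 CPM of the fibroblast and matrix list against ACTG2 (left) and of the cell cycle list against PCK1 (right), both axes in log2 CPM, with 1 point per fed or fasted piglet of 6 weeks. Fibroblast genes rise with ACTG2 in both groups, and fed pig 46 lies at the lower right of the fed pigs in the right panel, with the highest PCK1 and the lowest cell cycle level.

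PCK1, phosphoenolpyruvate carboxykinase, an enzyme of glucose synthesis that rises on fasting, ranged in fed pigs from 42.7 CPM in pig 60 to 656 CPM in pig 46, with a median of 121. Fasted pigs lay between 469 and 3170 CPM, and pig 46 was the fed pig inside that range. Among all 16 fed pigs 641 genes rose with PCK1 (5.56%) and 683 fell (5.92%). Of 26 cell cycle genes 24 fell, among them the topoisomerase TOP2A with a slope of -0.4 ± 0.1 (edgeR adjusted p = 0.021) and the mitotic kinase CDK1 with -0.27 ± 0.08 (edgeR adjusted p = 0.041). TOP2A ranged from 43.9 CPM in pig 46 to 140 CPM in pig 40. Of 13 heat shock genes 6 fell, including HSPH1, with a slope of -0.46 ± 0.08. Of 16 lipid absorption genes 5 rose, including SCARB1, a lipoprotein and sterol receptor that ranged from 27.7 CPM in pig 40 to 477 CPM in pig 46.

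These calls rested on pig 46. Without it no gene was called with PCK1 by edgeR, although 2440 genes had an unadjusted p under 0.05 and the lowest adjusted p was 0.1. All 1324 genes called with 16 pigs kept their sign with 15, but both fits share these 15 pigs, so this is not a separate result. All 26 cell cycle genes had a negative slope, with a median of -0.27 against 0 over all genes. These 26 genes varied together, so their signs are not separate observations. With library size alone in place of TMM the number called with all pigs was 418, and 4 of the cell cycle genes fell. Without pig 60, the pig with the lowest PCK1, 731 genes were called. In fasted pigs 500 genes rose (4.34%) and 390 fell (3.38%), 10 of the 26 cell cycle genes fell, and 305 calls were shared with the fed pigs, all with the same sign. The slope of ST6GALNAC5, VAMP5, COPS2 or TACC2 on PCK1 was nearest to a difference between the groups (edgeR adjusted p = 0.059 for each). No slope differed by edgeR, 1132 had an unadjusted p under 0.05, and limma-voom called 8.

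DUOX2, the hydrogen peroxide-producing oxidase of the gut epithelium, ranged in fed pigs from 1.2 CPM in pig 38 to 37.3 CPM in pig 60, with a median of 4.87. In fasted pigs it ranged from 0.465 to 14.1 CPM. No gene was called with it among fed pigs by edgeR (percent called 0, 1025 at an unadjusted p under 0.05) or by limma-voom, and DESeq2 called 30. In fasted pigs 127 rose (1.1%) and 36 fell (0.312%), with 12 of 26 cell cycle genes among those that rose. The difference of the slopes was not called for any gene by edgeR (percent called 0, 726 at an unadjusted p under 0.05) or by limma-voom. NOS2, the inducible nitric oxide synthase, ranged from 54.6 CPM in pig 38 to 595 CPM in pig 64 in fed pigs and from 5.03 to 748 CPM in fasted pigs. CXCL2, a neutrophil chemokine, peaked in pig 60 like DUOX2, at 22.6 CPM, with a slope of 0.37 ± 0.08 (edgeR adjusted p = 0.14).

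Of 15 pairs of anchors in fed pigs, none passed the permutation test after adjustment for 15 relations, which does not show that the anchors were unrelated. OASL and PCK1 had a Pearson correlation of -0.53 (permutation p = 0.039, adjusted p = 0.38) and a Spearman correlation of -0.34 (permutation p = 0.2, adjusted p = 0.6). Without the 2 pigs farthest from the median of OASL, Pearson's r was -0.08. OASL and ACTG2 had a Pearson correlation of -0.46 (permutation p = 0.077, adjusted p = 0.38) and a Spearman correlation of -0.68 (permutation p = 0.005, adjusted p = 0.075), and r was -0.6 without those 2 pigs. ACTG2 and PCK1 had a Pearson correlation of 0.47 (permutation p = 0.067, adjusted p = 0.38) and a Spearman correlation of 0.49 (permutation p = 0.053, adjusted p = 0.4), and r was 0.6 without the 2 pigs farthest from the median of ACTG2. None of 24 relations between an anchor and the total count, TMM factor, share of reads outside genes or number of genes counted passed either (lowest adjusted p 0.981).

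Gene lists differed widely in how closely their members varied together. In fed pigs the mean correlation over pairs was 0.85 for cell cycle, 0.83 for smooth muscle and 0.74 for fibroblast and matrix genes. It was 0.57 for sterol synthesis and 0.55 for crypt stem cell genes, in both groups. Macrophage and dendritic cell genes had 0.22 in fed and 0.52 in fasted pigs, and genes of BEST4 enterocytes, an ion-transporting cell type, had 0.46 and 0.28, differences that were not tested. Among the genes of BEST4 enterocytes, HES4, a target of Notch signalling, ranged in fed pigs from 16.7 CPM in pig 46 to 148 CPM in pig 48.

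**Figure D5:**
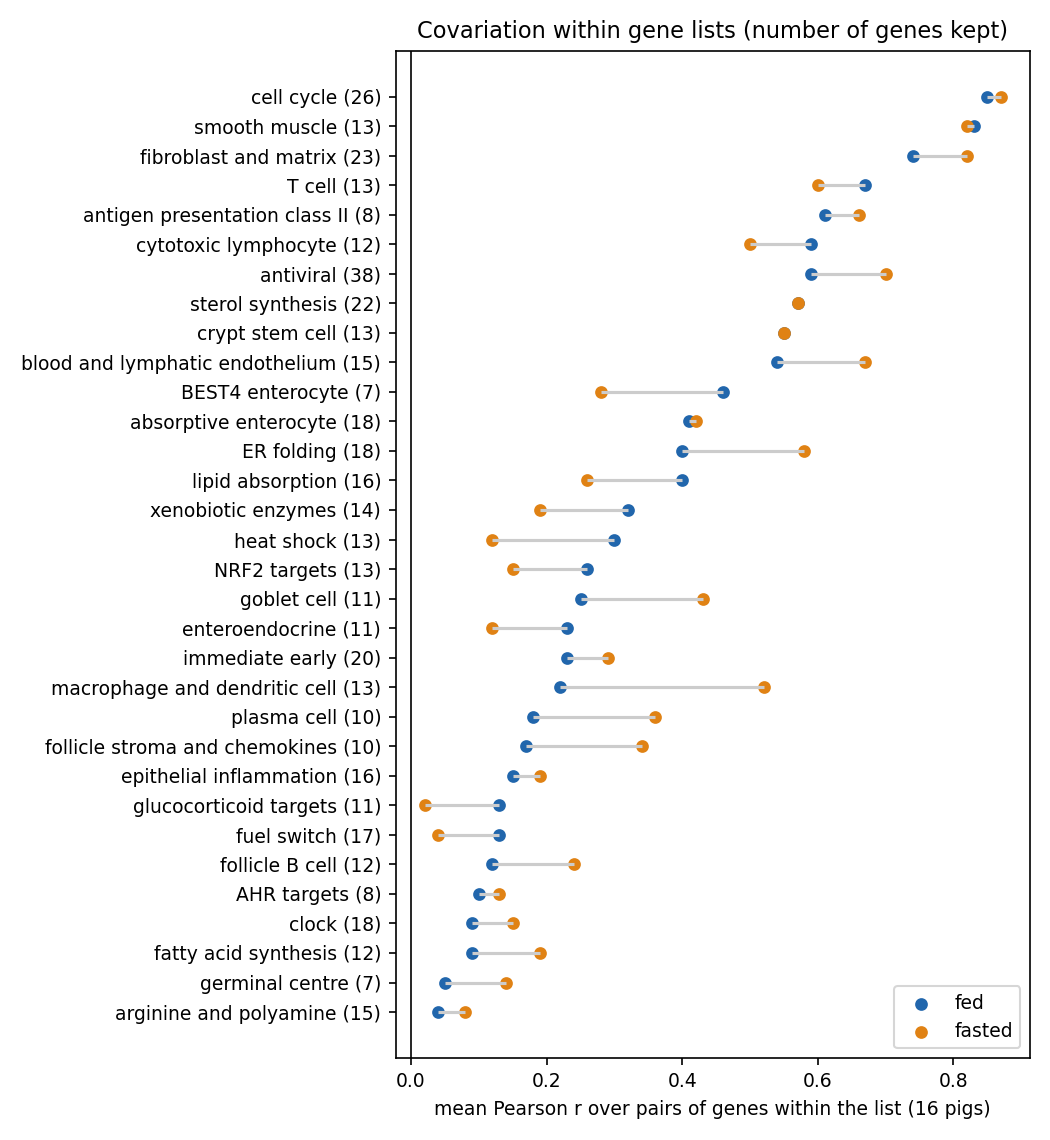
Mean Pearson correlation over pairs of genes within a list, over 16 fed and 16 fasted piglets of 6 weeks, for lists with at least 7 kept genes (number in brackets). Cell cycle, smooth muscle and fibroblast genes lie highest in both groups, and arginine and polyamine genes lie lowest among fed pigs, at 0.04.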

How the data were processed

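Mid-jejunal mucosal scrapings of 16 fed and 16 fasted 6-week piglets were sequenced on a BGISEQ-500, per the labels, whose extraction protocol speaks of muscle tissue. The authors deposited raw read counts for each gene. The submitters' processing notes name STAR, HTSeq and the build Sscrofa11.1. Neither versions nor the annotation release nor a strand setting is given in the sources used here, and overlapping genes cannot be told apart by strand. The 5 summary classes, 15.7 to 17.7% of reads in fed libraries, were left out. Genes were kept by filterByExpr (13483) and by a mean of 1 or more in log2 CPM (11533), with TMM scaling and a prior count of 2. MS4A1 was below that level, so its fits used the first filter alone.

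Spread was tested with limma 3.58.1 on absolute deviations from the group median. Slopes and levels were tested with edgeR 4.0.16 (robust quasi-likelihood F test), the SE being the estimate divided by the square root of F. Calls needed a Benjamini-Hochberg adjusted p under 0.05 over all genes tested. Relations between anchors used 2-sided permutation tests with 100000 resamples. DESeq2 1.42.0 and limma-voom were alternatives, and R 4.3.3 and Python 3.11.15 were used. The spread test, an anchor slope in fed pigs and the level test were tried on simulated data. The slope difference between groups, the permutation tests, DESeq2 and limma-voom were not.

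Named genes were the 30 largest SDs in fed pigs (with a symbol, leaving out genes of mitochondria, ribosomal proteins, immunoglobulins and T cell receptors), the 3 most variable members of each list, the anchors, the 5 smallest p in each direction of the spread test and the 5 smallest p among genes rising and falling with each anchor, of which the text names some. Anchors, members and lists were chosen with earlier results of these data known. Other members of lists, neighbouring genes, TREX1, PELP1, TAP1 and the genes nearest to a slope difference were named after their values were seen. Positions came from RefSeq's Sscrofa11.1 table, matched by symbol for 29 of 33 genes.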

Additional observations from a re-analysis of the deposited data

How the results depend on the processing

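No paired analysis was possible because pig numbers are unique to a pig and no source ties a fed to a fasted pig. Genes with a different spread numbered 0 under 10 of 11 planned settings and 18 with no filter on low counts, and 0 each time 1 of the 32 pigs was left out. Of the 30 most variable genes, 19 remained by the median absolute deviation and 17 at a mean log2 CPM of at least 3, 22 to 30 under the other settings, and 26 to 29 with 1 fed pig left out. DESeq2 called more genes than edgeR with OASL (471 against 266), CYP1A1 (196 against 2), ACTG2 (609 against 393), PCK1 (2001 against 1324) and DUOX2 (30 against 0). Smooth muscle and follicle B cell levels as covariates gave 125 for OASL, 1 for CYP1A1 and 1 for MS4A1. Library size alone gave 1 for CYP1A1 and 418 for PCK1, and anchor ranks gave 12 for CYP1A1 and 0 for MS4A1. MS4A1 had 0 among genes with a mean log2 CPM of at least 1. Leaving out the pig with the lowest anchor level, the pig with the highest or pig 46 gave 143 to 206 for OASL, 1 to 2 for CYP1A1, 0 to 3 for MS4A1, 361 to 394 for ACTG2, 0 to 731 for PCK1 and 0 for DUOX2. Slopes on PCK1 that differed between fed and fasted pigs numbered 8 by limma-voom. The cause of these shifts was not tested, except that fewer pigs or genes entered some fits. With 16 pigs a group, differences in spread that are not small can also go uncalled. By limma's test, VNN1 had SDs of 1.4 in fed and 0.64 in fasted pigs (adjusted p = 0.99). GCNT3, wider in fasted pigs, had SDs of 0.57 and 1.27 (adjusted p = 0.4). Fits without pig 46 for 4 anchors, the prior counts for single genes and the rank correlations were chosen after seeing the data.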

Other observations

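The pigs of 4 weeks were scaled together with the 6-week pigs over all 64 libraries to give the levels of the split genes there. FUT2 was 0.695 to 300 CPM in fed 4-week pigs, with 6 pigs at or below 2.66 CPM and the next at 25.4 CPM. In fasted 4-week pigs it was 1.11 to 160 CPM, with 3 pigs at or below 1.46 CPM and the next at 11.4 CPM. ST3GAL1 had 10 fed 4-week pigs at or below 33 CPM and the next at 256 CPM. In fasted 4-week pigs its widest gap, from 59.5 to 140 CPM, was below 4-fold.

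CYP1A1 was low at 4 weeks, with medians of 0.178 CPM in fed and 0.111 CPM in fasted pigs on this scaling. A single fed 4-week pig reached 40.8 CPM, and the next had 1.44 CPM. BCO1 ranged from 18 to 159 CPM in fed 4-week pigs and from 0.154 to 88.3 CPM in fed 6-week pigs on the same scaling.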
